A study of Mus musculus with 7 samples.

Results

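The collagen chain genes of the mouse genome encode the chains that wind into the triple helices of the extracellular matrix. They were followed here in the nuclei of cultured BB-p53n OPCs, to ask which chains these cells transcribed, and in which nuclei. The members were all genes of the count matrix whose symbol is Col, a number, the letter a and a number. This rule found 44 of the 33696 genes of the matrix, and it used no measured value. Nuclei with 2000 to 8000 detected genes were kept, which left 8917 of 10047 barcodes.

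Each helix joins chains of 1 kind or of several. Fibril-forming collagens build the banded fibers of skin, bone and cartilage, fibril-associated collagens sit on the surface of such fibers, and type IV collagens form the network of basement membranes. In the brain parenchyma banded fibers are scarce, and most collagen lies in the basement membranes of blood vessels and in the meninges, while some fibril-associated and transmembrane collagens are made by neurons and glia. Oligodendrocyte progenitor cells (OPCs) are the dividing glial cells that carry PDGFRα and give rise to oligodendrocytes.

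The study injected BB-p53n OPCs into mice and sequenced nuclei of the cultured cells and of the brains with early-stage and late-stage tumors. The 6 tumor samples were not analysed here. BB-p53n OPCs are primary OPCs of *Trp53* fl/fl C57BL/6 pups of either sex, near the end of the first week after birth. The cells were isolated with an antibody against PDGFRα (CD140a). They were transduced with a PDGFB-IRES-CRE retrovirus, which deletes *Trp53* and overexpresses PDGFB in the same cells, and were kept in culture. The whole culture was treated in this way, and neither the deletion nor the virus was measured here in single nuclei. OPCs without either were not analysed here.

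The nuclei came from 1 library, prepared without debris removal or filtering, so no difference between classes of nuclei was tested. The kept nuclei held 141138093 UMIs (unique molecular identifiers, each tagging 1 captured transcript). The median nucleus had 13771 UMIs and 4718 detected genes. Levels are given as CPM, the UMIs of a gene per 1000000 UMIs of the same nuclei, with 95% exact Poisson intervals in parentheses. Ratios of CPM have 95% exact conditional intervals and shares of nuclei 95% exact binomial (Clopper-Pearson) intervals. All of these cover counting error only. As a check of the label, *Trp53* was counted at 24.8 CPM and mouse *Pdgfb* at 0.531 CPM. Gene counts do not show the deleted exons, and the viral transcript was not analysed here. The OPC genes *Olig1* and *Olig2* were present in every class described below, from 530.4 and 231 CPM upward.

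All 44 chains had at least 4 UMIs, and 22 of them reached 1 CPM, as did 53.2% of the 25898 genes with a UMI. Together the chains took 144867 UMIs, 0.103% of all UMIs. *Col11a1*, the α1 chain of the fibril-forming type XI collagen of cartilage, had 82067 UMIs and a level of 581 CPM (577 to 585). *Col19a1*, a fibril-associated chain of basement membrane zones that neurons also make, had 38220 UMIs and a level of 271 CPM (268 to 274). These 2 genes held 83.0% of all collagen UMIs. Only 221 genes of the matrix had more UMIs than *Col11a1*, and 574 had more than *Col19a1*.

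*Col9a1*, a chain of the fibril-associated type IX collagen, was at 47.0 CPM, and the fibril-associated *Col16a1* was at 24.5 CPM. *Col28a1*, which carries von Willebrand factor A domains and is known from the surroundings of peripheral glia, was at 13.5 CPM. The basement membrane chain *Col4a1* was at 10.3 CPM, as was the transmembrane chain *Col25a1*, which was first found in amyloid plaques. *Col5a1*, *Col4a2*, *Col9a3*, *Col27a1*, *Col22a1*, *Col5a3*, *Col4a4*, *Col20a1*, *Col9a2*, *Col23a1*, *Col12a1*, *Col6a1*, *Col4a5*, *Col11a2* and *Col6a2* lay between 9.85 and 1.03 CPM, in that order.

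**Figure D1:**
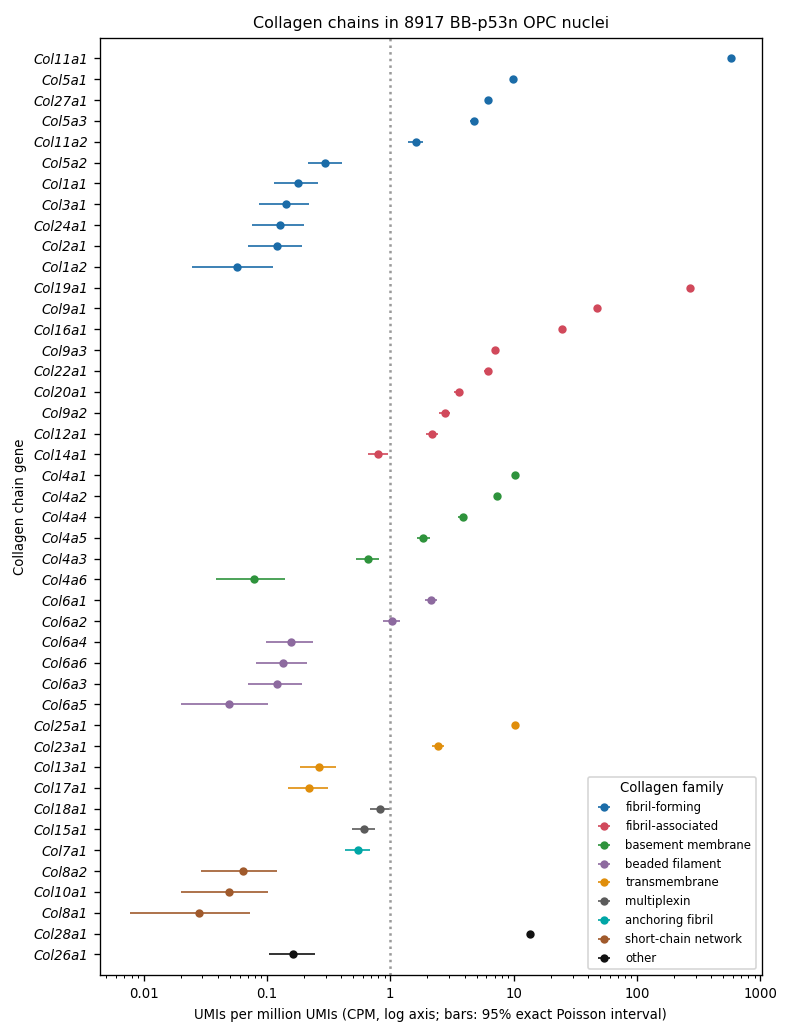
Level of each of the 44 collagen chains in CPM on a log axis, grouped by family, with 95% exact Poisson intervals and a dotted line at 1 CPM. *Col11a1* (581 CPM) and *Col19a1* (271 CPM) stand apart from the other chains, and 22 chains lie below the line.

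The chains of the most abundant collagens of other tissues were close to the limit of detection. *Col1a1* and *Col1a2*, which form the type I fibers of bone and skin, had 25 and 8 UMIs in 8917 nuclei. *Col3a1*, their partner in soft tissues, had 20 UMIs. *Col2a1*, the main fibril chain of cartilage, to whose fibers collagens IX and XI belong, had 17 UMIs, or 0.120 CPM (0.0702 to 0.193). The 22 chains under 1 CPM had 4 to 117 UMIs each. They included all 3 chains of the short-chain networks (*Col8a1*, *Col8a2* and *Col10a1*), at 4, 9 and 7 UMIs. Of the 18 UMIs of *Col24a1*, 7 came from 1 nucleus. By family, the 9 fibril-associated chains had 8 members at 1 CPM or more, the 11 fibril-forming chains 5, the 6 chains of type IV 4, the 6 beaded filament chains 2 and the 4 transmembrane chains 2.

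A long gene can gather more counts where unspliced transcripts are counted. The default of the counting tool includes them, but the setting used is not given in the sources used here. Levels were compared between genes per kb of gene span on that assumption. Per kb, *Col11a1* (chromosome 3 of GRCm39, 113824134 to 114014367, plus strand) stayed first, at 3.06 CPM per kb. *Col19a1* (chromosome 1, 24296772 to 24627011, minus strand), *Col9a1* (chromosome 1, 24216691 to 24291765, plus strand) and *Col16a1* (chromosome 4, 129941154 to 129993076, plus strand) followed at 0.820, 0.626 and 0.472 CPM per kb. The first 4 places were therefore the same by either measure. *Col9a3* and *Col9a2* came next, at 0.290 and 0.173 CPM per kb, so that all 3 chains of type IX collagen were among the first 6. *Col28a1* went from rank 5 by CPM to rank 11 per kb, at 0.0688 CPM per kb. *Col25a1*, on the longest of these genes, went from rank 7 to rank 19, at 0.0220 CPM per kb. The median span was 120.4 kb for the 22 chains at 1 CPM or more and 106 kb for the 22 others.

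Several chains share bases with other genes. *Col4a1* and *Col4a2* start head to head on chromosome 8 and overlap by 356 bases on opposite strands, and *Col4a3* and *Col4a4* overlap by 159 bases in the same way. *Col10a1* lies within *Nt5dc1* and *Col18a1* overlaps *Slc19a1*, both on the opposite strand. The setting of strand in the counting is not given in the sources used here, and these counts are uncertain to that degree. *Col20a1* and *Col26a1* share their strand with the non-coding genes *9230112E08Rik* and *Gm20485*, which had 164 and 23 UMIs.

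To compare shares of nuclei, each nucleus was thinned at random to 5000 UMIs, which left out 157 shallower nuclei. A UMI of *Col11a1* was then found in 72.1% of nuclei (83.8% unthinned) and 1 of *Col19a1* in 54.1% (70.6% unthinned). *Col9a1* was found in 17.1% of nuclei, *Col16a1* in 10.8% and *Col28a1* in 5.62%. As a gauge of free RNA or of pairs of nuclei under 1 barcode, UMIs of the Y-linked genes *Ddx3y*, *Uty*, *Kdm5d* and *Eif2s3y* were looked for. Free RNA and such pairs cannot be told apart here. A UMI of any of these genes was found in 5.08% (4.16% to 6.13%) of the nuclei with 2 or more *Xist* UMIs, against 24.5% of the nuclei without *Xist*. The median depths were 12522 and 14184 UMIs before thinning. The gauge holds for these Y-linked genes and was not scaled to the level of other genes. It therefore sets no limit for the share of *Col28a1*, which is given by class below. A nucleus held a median of 2 different chains after thinning, and 7.02% of nuclei held none.

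The first split of the nuclei was by *Pdgfra*, which encodes the receptor the cells were isolated with. *Pdgfra* was not counted in 2341 nuclei, had 1 UMI in 1000 nuclei, and had 2 or more in 5576 nuclei. Nuclei without *Pdgfra* were shallower, with a median of 10621 UMIs against 16258. Summed collagen was at 481 CPM (473 to 489) in the nuclei without *Pdgfra* and at 1180.2 CPM (1173.6 to 1186.9) in those with 2 or more, a ratio of 0.407 (0.400 to 0.415). The sum followed *Col11a1* and *Col19a1*. Without these 2 chains it was higher where *Pdgfra* was not counted, at 216 against 163 CPM, a ratio of 1.33 (1.29 to 1.37).

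Of the 44 chains, 27 had at least 50 UMIs in both classes together, and 16 of these differed by 2-fold or more, against a background of 16.6% of the 15875 genes with as many UMIs. Of the 16, 8 were higher without *Pdgfra* (background 9.82%) and 8 lower (background 6.74%). For 12 chains the whole interval lay past 2-fold, against 9.76% of the genes. The median log2 ratio was -0.08 for the 27 chains and 0.16 for all 15875 genes.

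The 8 chains that were higher without *Pdgfra* came from several families. *Col28a1* had 1338 UMIs in the nuclei without *Pdgfra* and 404 in those with 2 or more, or 50.1 against 3.93 CPM, a ratio of 12.8 (11.4 to 14.3). After thinning it was found in 16.9% (15.4% to 18.6%) of nuclei without *Pdgfra* and in 1.28% (1.00% to 1.61%) of the others. The part of free RNA in these shares was not tested. *Col6a1* and *Col6a2*, which pair in the beaded filaments of type VI collagen, were at 7.15 against 0.855 CPM and at 3.18 against 0.457 CPM, ratios of 8.36 (6.46 to 10.9) and 6.97 (4.82 to 10.2). The third chain of that trimer, *Col6a3*, had 11 and 6 UMIs, too few to be counted above. The type IV partners *Col4a1* and *Col4a2* were at 29.9 against 4.91 CPM and at 21.9 against 3.47 CPM. Their ratios, 6.10 (5.45 to 6.83) and 6.30 (5.51 to 7.21), were within each other's intervals. *Col5a1*, which sets the width of collagen fibrils, was at 24.2 against 6.14 CPM, a ratio of 3.94 (3.53 to 4.41). Its usual partner *Col5a2* had 0 UMIs without *Pdgfra* and 37 with 2 or more. Taking 3 UMIs as the floor, *Col5a2* was at least 3.20-fold lower without *Pdgfra*, the reverse of *Col5a1*, on few UMIs. The fibril-associated *Col12a1* of tendon was at 4.61 against 1.56 CPM, a ratio of 2.96 (2.32 to 3.77). *Col18a1*, the source of endostatin, had a ratio of 2.53 (1.65 to 3.83).

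Chains that were lower without *Pdgfra* were led by the collagens of types IX, XI and XIX. *Col9a1* had 278 and 5858 UMIs in the 2 classes, or 10.4 against 56.9 CPM, a ratio of 0.183 (0.162 to 0.206). *Col11a1* was at 160.3 against 706 CPM, a ratio of 0.227 (0.220 to 0.234). *Col9a2* was at 0.899 against 3.20 CPM, a ratio of 0.281 (0.177 to 0.426). *Col19a1* was at 104 against 312 CPM, a ratio of 0.335 (0.322 to 0.348). *Col22a1*, a fibril-associated chain of tissue junctions, was at 2.47 against 7.22 CPM, a ratio of 0.342 (0.262 to 0.441). *Col16a1*, *Col4a3* and *Col15a1* were past 2-fold with intervals that reached across it, the last with only 5 UMIs without *Pdgfra*. Chains of 1 trimer did not all move together. *Col9a3*, the third chain of type IX, was at 7.60 against 6.76 CPM, a ratio of 1.13 (0.958 to 1.32). *Col11a2* had a ratio of 0.583 (0.377 to 0.871).

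**Figure D2:**
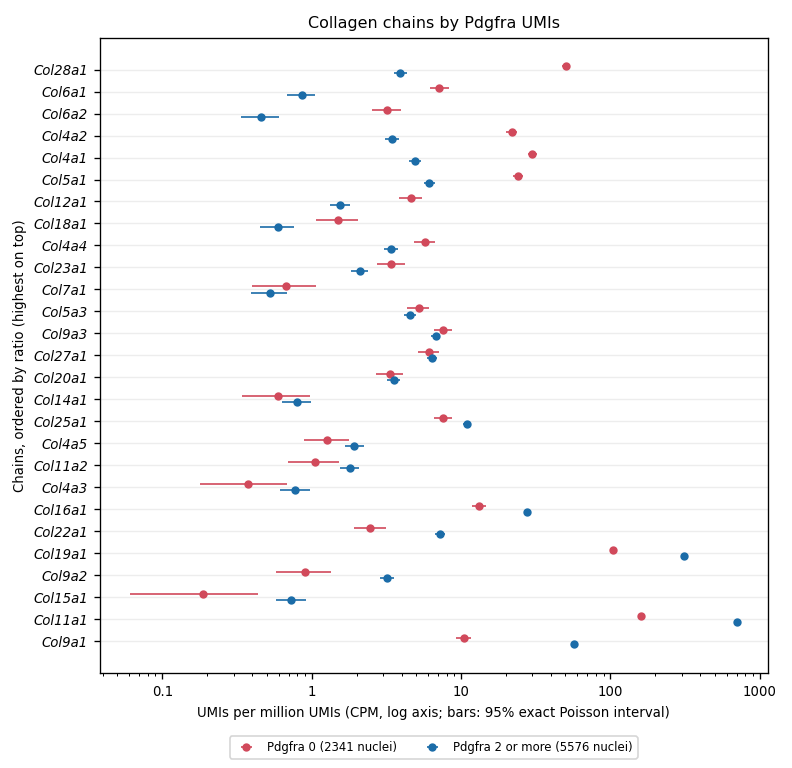
Level in CPM (log axis, 95% exact Poisson intervals) of the 27 chains with at least 50 UMIs, in the 2341 nuclei without a *Pdgfra* UMI and in the 5576 nuclei with 2 or more, ordered by ratio. *Col28a1* (50.1 against 3.93 CPM) is at the top and *Col9a1* (10.4 against 56.9 CPM) at the bottom, while *Col9a3*, *Col27a1* and *Col20a1* lie near equal levels.

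The remaining chains with at least 50 UMIs stayed within 2-fold. *Col27a1*, *Col20a1* and *Col5a3* had ratios of 0.948 (0.794 to 1.13), 0.942 (0.738 to 1.19) and 1.15 (0.942 to 1.39). *Col25a1* was at 7.56 against 10.9 CPM, a ratio of 0.695 (0.595 to 0.808). *Col4a4* and *Col23a1* were higher without *Pdgfra*, with ratios of 1.67 (1.37 to 2.03) and 1.62 (1.26 to 2.08). Among the 17 chains under 50 UMIs, *Col13a1*, a transmembrane chain of the neuromuscular junction, had 25 UMIs without *Pdgfra* and 10 with 2 or more, a ratio of 9.63 (4.47 to 22.5).

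The promoter sequences of some chains from either side of this order, not always the outermost, are shown to set the 2 sides beside each other. They are the 250 bases before the annotated start of the canonical transcript, 5′ to 3′ on the strand of the gene, read from GRCm39. Capitals mark the core letters of the TATA box (TATAAA), of the CCAAT box (CCAAT), of the GC box (GGGCGG) and of sites for SOX factors (ACAAT). Both strands were searched, so that a reverse complement is in capitals too. *Col28a1* and *Col6a2* stand for the chains that were higher without *Pdgfra*, and *Col9a1*, *Col11a1* and *Col19a1* for those that were lower. The regions are chr6:8192618-8192867 (minus strand), chr10:76459550-76459799 (minus), chr1:24216441-24216690 (plus), chr3:113823884-113824133 (plus) and chr1:24627012-24627261 (minus).
Col28a1: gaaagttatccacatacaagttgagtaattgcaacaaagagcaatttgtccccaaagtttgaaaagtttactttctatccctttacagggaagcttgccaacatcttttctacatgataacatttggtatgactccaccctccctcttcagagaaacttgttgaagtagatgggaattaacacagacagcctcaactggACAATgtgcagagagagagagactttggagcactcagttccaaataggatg
Col6a2: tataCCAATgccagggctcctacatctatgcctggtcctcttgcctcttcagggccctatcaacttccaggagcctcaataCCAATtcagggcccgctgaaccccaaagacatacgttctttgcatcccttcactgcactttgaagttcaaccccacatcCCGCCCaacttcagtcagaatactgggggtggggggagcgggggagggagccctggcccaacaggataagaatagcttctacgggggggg
Col9a1: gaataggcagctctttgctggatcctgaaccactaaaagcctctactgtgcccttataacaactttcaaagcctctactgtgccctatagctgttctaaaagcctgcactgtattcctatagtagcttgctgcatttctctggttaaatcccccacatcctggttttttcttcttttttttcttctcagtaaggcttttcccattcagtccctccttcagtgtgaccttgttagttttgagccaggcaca
Col11a1: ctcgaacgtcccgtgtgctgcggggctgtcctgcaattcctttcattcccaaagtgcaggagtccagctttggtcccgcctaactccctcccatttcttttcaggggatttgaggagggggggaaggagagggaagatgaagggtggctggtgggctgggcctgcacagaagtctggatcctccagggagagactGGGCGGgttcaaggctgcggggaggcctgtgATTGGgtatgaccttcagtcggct
Col19a1: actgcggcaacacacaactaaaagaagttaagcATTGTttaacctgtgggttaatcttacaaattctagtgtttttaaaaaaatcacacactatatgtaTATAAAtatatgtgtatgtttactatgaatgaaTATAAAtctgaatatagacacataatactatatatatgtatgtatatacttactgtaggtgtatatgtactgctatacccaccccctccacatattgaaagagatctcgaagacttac

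Matches to the core letters of the CCAAT box, the GC box and the SOX site were found among both the higher and the lower chains. Of the 12 chains wholly past 2-fold, TATAAA was in the window of *Col19a1* alone, with 2 matches, against 11.9% of the windows of 21770 protein-coding genes. CCAAT was in 4 of 12 windows (36.5% of all), GGGCGG in 5 (36.3%) and ACAAT in 4 (26.96%), namely those of *Col28a1*, *Col12a1*, *Col9a2* and *Col19a1*. The window of *Col9a1* held none of the 4. The windows of *Col4a1*, *Col4a2* and *Col6a1* overlap annotated exons and are counted among the 12. The GC content was 40.4% for *Col28a1*, 43.6% for *Col9a1*, 59.6% for *Col11a1* and 30.0% for *Col19a1*. Matches to so few letters are a description of these windows and not of factor binding.

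Other transcripts differed by the same split. *Xist*, the RNA of the inactive X chromosome, was at 710.3 CPM without *Pdgfra* and at 46.1 CPM with 2 or more, and *Egfr* at 200.5 against 21.6 CPM. Pups of both sexes were used, so nuclei of female and male origin were both present, and *Xist* nuclei were taken as those with 2 or more *Xist* UMIs and no Y-linked UMI (1817 nuclei), Y-linked nuclei as the reverse (1719 nuclei). The 2 sets differed in some of the same chains, and 13 of 23 chains were past 2-fold, against 18.2% of all genes. *Col28a1* was at 58.5 CPM in *Xist* nuclei and at 1.34 CPM in Y-linked nuclei, a ratio of 43.6 (31.5 to 62.2). *Col19a1* was at 54.4 against 430 CPM, a ratio of 0.127 (0.120 to 0.134). *Col4a1*, *Col5a1* and *Col6a1* had ratios of 6.85, 5.76 and 8.47. Sex, animal of origin and clone cannot be told apart here.

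The *Pdgfra* split was therefore repeated within these sets. In 1428 *Xist* nuclei without *Pdgfra* and 266 with 2 or more, the summed collagen ratio was 0.326 (0.314 to 0.338). The second of these groups was deep, with a median of 26457 UMIs against 11299, and whether it holds pairs of nuclei under 1 barcode was not tested. Here *Col19a1* was at 4.66 against 176 CPM, a ratio of 0.0264 (0.0208 to 0.0332), *Col9a1* had a ratio of 0.0404 (0.0268 to 0.0588) and *Col11a1* one of 0.0889 (0.0824 to 0.0959). *Col28a1* was at 69.6 against 29.5 CPM, a ratio of 2.36 (2.03 to 2.75), smaller than over all nuclei. Of 19 chains with at least 50 UMIs, 10 were past 2-fold, against 12% of all genes.

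Within 348 Y-linked nuclei without *Pdgfra* and 1071 with 2 or more the chains differed less. The summed ratio was 0.822 (0.791 to 0.854), and 3 of 16 chains were past 2-fold, against 3.66% of all genes. *Col19a1* was at 449.6 against 424 CPM, a ratio of 1.06 (1.01 to 1.12), so it was not lower without *Pdgfra* in this set. *Col11a1* had a ratio of 0.619 (0.581 to 0.660) and *Col9a1* one of 0.360 (0.262 to 0.483). *Col28a1* had 10 and 22 UMIs, a ratio of 2.67 (1.13 to 5.87), and *Col5a1* had a ratio of 0.671 (0.336 to 1.22). In the nuclei with neither *Xist* nor Y-linked UMIs, 345 without *Pdgfra* and 3616 with 2 or more, the summed ratio was 0.733 (0.708 to 0.759), and 6 of 23 chains were past 2-fold, against 8.86% of all genes. There *Col28a1* was at 15.4 against 1.36 CPM, a ratio of 11.4 (7.94 to 16.1), and *Col4a1* at 18.8 against 3.55 CPM, a ratio of 5.30 (3.97 to 6.99), while *Col9a1*, *Col11a1* and *Col19a1* had ratios of 0.740 (0.633 to 0.861), 0.666 (0.636 to 0.697) and 0.638 (0.590 to 0.689). *Col28a1*, *Col4a1*, *Col4a2*, *Col6a1*, *Col6a2* and *Col12a1* were thus at higher levels without *Pdgfra* in all 3 sets, and *Col9a1*, *Col11a1* and *Col22a1* at lower levels. The intervals included 1 for *Col4a1* (0.875 to 2.36), *Col6a2* (0.115 to 4.89, on 2 and 11 UMIs) and *Col22a1* (0.352 to 1.29) among Y-linked nuclei, and for *Col12a1* (0.770 to 3.44) and *Col22a1* (0.647 to 1.40) among nuclei with neither.

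**Figure D3:**
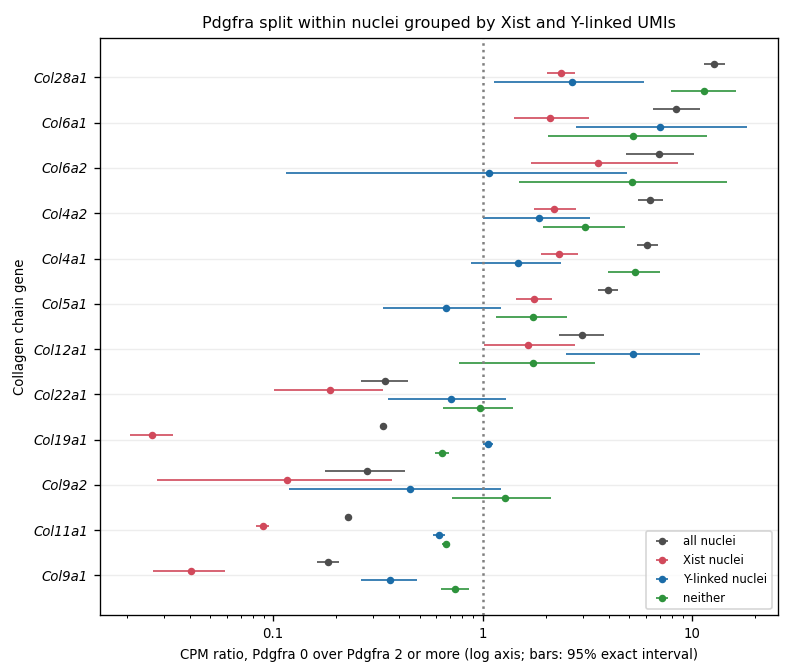
Ratio of CPM without *Pdgfra* over CPM with 2 or more *Pdgfra* UMIs (log axis, 95% exact intervals) for the 12 chains wholly past 2-fold, over all nuclei and within *Xist* nuclei, Y-linked nuclei and nuclei with neither. *Col19a1* spreads most, from 0.0264 in *Xist* nuclei to 1.06 in Y-linked nuclei.

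*Egfr* divided the nuclei without *Pdgfra* further. In 1125 of them with 2 or more *Egfr* UMIs and 738 with none, *Col28a1* was at 67.2 against 21.0 CPM, a ratio of 3.19 (2.69 to 3.81). *Col4a1* was at 36.2 against 15.4 CPM. *Col11a1*, *Col19a1* and *Col9a1* were at 81.5 against 336 CPM, at 62.0 against 189.7 CPM and at 4.45 against 22.4 CPM. *Col12a1* did not differ beyond counting error, with a ratio of 0.972 (0.624 to 1.54). In all, 6 of 19 chains were past 2-fold by *Egfr*, against 7.34% of all genes. The part of *Egfr*, *Xist* and depth in the *Pdgfra* split was not tested beyond these values.

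At equal depth the sum and the chains with most UMIs differed in the same direction. After thinning to 5000 UMIs, 3734 nuclei had no *Pdgfra* UMI, 2152 had 1, 2275 had 2 to 3 and 599 had 4 or more. Summed collagen was at 719.98 CPM, 1107.6 CPM, 1197 CPM and 1323 CPM in these 4 bins. *Col11a1* was at 338, 620.2, 707 and 775 CPM. *Col28a1* was at 32.6, 3.53, 2.73 and 1.34 CPM, the last from 4 UMIs, and *Col4a1* was at 19.4, 8.74, 4.48 and 4.01 CPM. For *Col28a1* and *Col4a1* most of the difference lay between the bins with 0 and 1 UMI. Not every chain went in steps. *Col9a2* was at 1.34, 3.35, 2.73 and 2.67 CPM, *Col22a1* at 4.45, 7.34, 6.86 and 9.02 CPM and *Col12a1* at 3.70, 1.39, 2.02 and 0.668 CPM. Thinning moves nuclei with little *Pdgfra* into the bin at 0, and the summed ratio between 0 and 2 or more was then 0.589. With the minimum of 50 UMIs kept on the thinned counts, 9 chains were past 2-fold in place of 16. Some chains left this count for lack of UMIs and not for a smaller ratio. *Col6a2*, *Col4a3* and *Col15a1* fell under the minimum, with ratios of 6.62, 0.440 and 0.385. After thinning to 3000 UMIs, *Col9a1*, *Col11a1*, *Col19a1*, *Col9a2* and *Col22a1* had ratios of 0.628, 0.552, 0.622, 0.706 and 0.823, so none of the 5 was past 2-fold, while *Col28a1* was at 16.3 and *Col4a1* at 2.73.

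**Figure D4:**
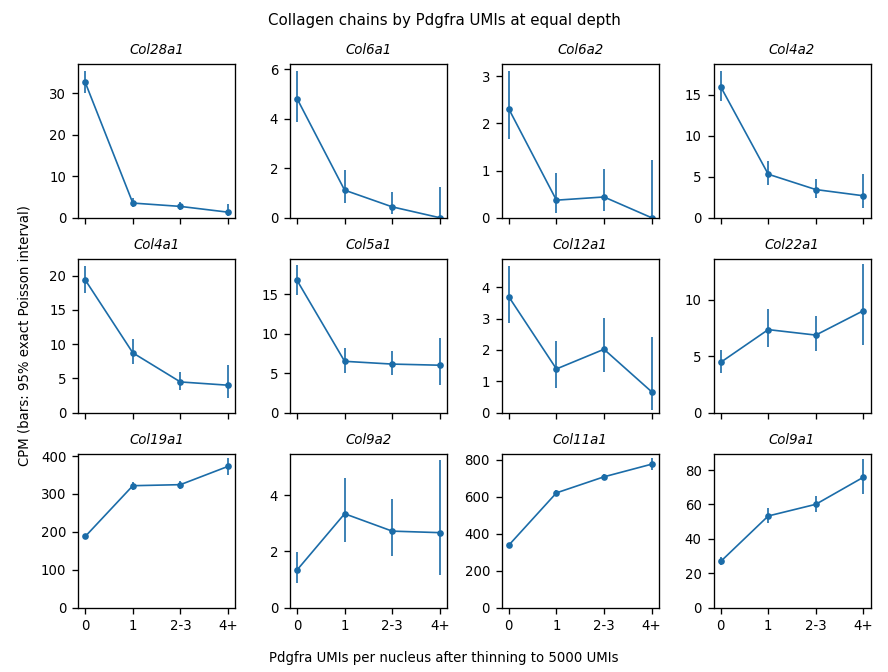
Level in CPM (linear axis, 95% exact Poisson intervals) of the 12 chains wholly past 2-fold in 4 bins of *Pdgfra* UMIs per nucleus, after each nucleus was thinned to 5000 UMIs. *Col28a1* goes from 32.6 to 3.53 CPM and *Col11a1* from 338 to 620.2 CPM between 0 and 1 UMI.

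The second split was by *Bnc2*, a zinc finger gene known from fibroblasts and other mesenchymal cells. Only 96 nuclei had 2 or more *Bnc2* UMIs, 148 had 1 and 8673 had none. The 96 nuclei held 1584980 UMIs, so a chain at 1 CPM gives 1.58 UMIs there, and their median depth was 11858 against 13759 UMIs. Of the 96, 77 had 2 or more *Pdgfra* UMIs and 8 had none. *Xist* was at 24.6 CPM in the 96 nuclei and at 185 CPM in those without *Bnc2*, and *Egfr* at 97.8 against 60.0 CPM.

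Summed collagen was at 1641 CPM (1578.6 to 1705.3) with 2 or more *Bnc2* UMIs and at 1013.7 CPM (1008.4 to 1019.1) without *Bnc2*, a ratio of 1.62 (1.56 to 1.68). Without *Col11a1* and *Col19a1* it was at 573 against 167 CPM, a ratio of 3.43. Of 27 chains with at least 50 UMIs in both classes together, 13 were past 2-fold, against 11.4% of the 16059 genes with as many UMIs. Of these 12 were higher with *Bnc2* (background 7.42%) and 1, *Col6a1*, was lower on 1 UMI (background 3.95%). For 7 chains the whole interval was past 2-fold, all higher, against 2.06% of the genes in either direction and 1.92% for higher.

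Those 7 chains were of types IV, IX and XI, with *Col25a1*. *Col4a5*, an X-linked chain of the basement membrane, had 25 UMIs in the 96 nuclei and 227 in those without *Bnc2*, or 15.8 against 1.66 CPM, a ratio of 9.52 (6.03 to 14.4). *Col9a3* had 81 and 863 UMIs, or 51.1 against 6.30 CPM, a ratio of 8.11 (6.38 to 10.2). *Col4a1* was at 58.7 against 9.41 CPM, a ratio of 6.23 (4.995 to 7.698), and *Col4a2* at 39.1 against 6.89 CPM, a ratio of 5.68 (4.32 to 7.35). *Col9a1* had 385 and 5992 UMIs, or 243 against 43.8 CPM, a ratio of 5.55 (4.99 to 6.16). *Col11a2*, a partner of *Col11a1*, had 12 UMIs, or 7.57 against 1.51 CPM, a ratio of 5.01 (2.55 to 8.94). *Col25a1* was at 43.5 against 9.51 CPM, a ratio of 4.58 (3.54 to 5.83). No nucleus of the 96 held more than 8 UMIs of *Col4a2* or 16 of *Col9a1*, and after thinning *Col9a1* was found in 63.2% (52.6% to 72.8%) of them, against 16.4% of the nuclei without *Bnc2* (86.5% and 36.4% unthinned).

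The 2 chains with most UMIs were within 2-fold by *Bnc2*. *Col11a1* was at 797 against 577 CPM, a ratio of 1.38 (1.31 to 1.46), and *Col19a1* was at 271 against 270.1 CPM, a ratio of 1.00 (0.911 to 1.10). These values changed with thinning, which lowers depth and also changes which nuclei count as having 2 or more *Bnc2* UMIs. The 2 effects cannot be told apart here. After thinning to 5000 UMIs, which leaves 31 nuclei with 2 or more *Bnc2* UMIs, *Col19a1* was at a ratio of 0.503 and *Col11a1* at 1.60, and at 3000 UMIs and 20 nuclei they were at 0.561 and 2.28. With at most 5% mitochondrial UMIs *Col19a1* was at 0.645. *Col16a1* had a ratio of 1.03 (0.735 to 1.41). *Col5a1* and *Col28a1*, which were high without *Pdgfra*, were at 6.94 against 9.79 CPM and at 7.57 against 13.6 CPM, ratios of 0.709 (0.353 to 1.27) and 0.557 (0.287 to 0.974). *Col6a1* and *Col6a2* had 1 UMI each. *Col7a1*, the chain of the anchoring fibrils of skin, had 0 UMIs, which allows up to 1.89 CPM (3 UMIs), above its 0.555 CPM in the nuclei without *Bnc2*. *Col18a1*, *Col9a2*, *Col14a1*, *Col27a1* and *Col4a4* had ratios from 4.89 to 2.18 with intervals that reached under 2-fold, that of *Col14a1* on 3 UMIs. Among the chains under 50 UMIs, *Col26a1* had 8 UMIs in the 96 nuclei and 14 in all nuclei without *Bnc2*, a ratio of 49.4 (17.9 to 126), and it shares its strand with *Gm20485*. *Col1a1* had 4 and 19 UMIs and *Col3a1* had 3 and 16.

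**Figure D5:**
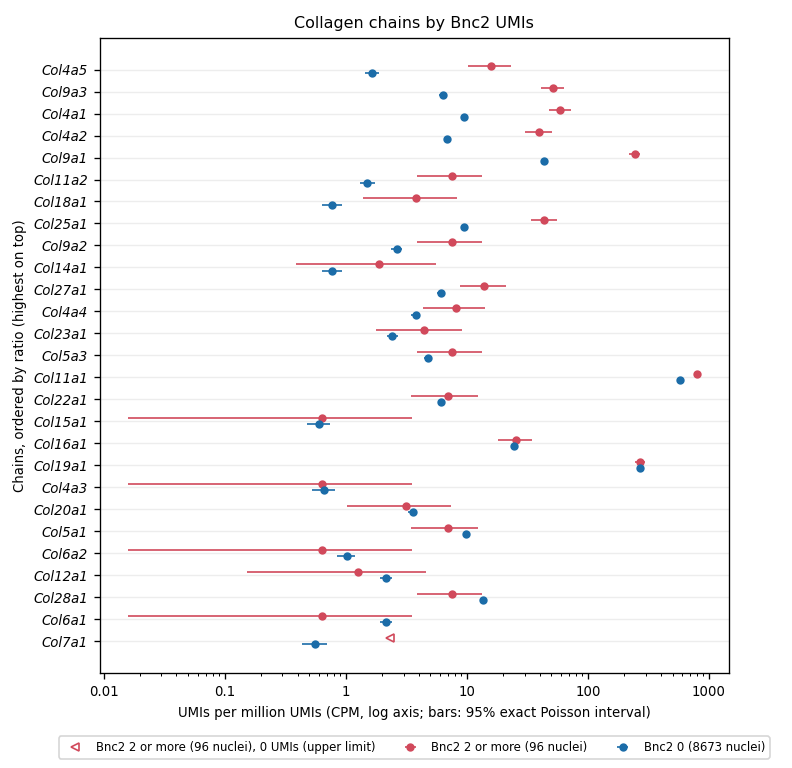
Level in CPM (log axis, 95% exact Poisson intervals) of the 27 chains with at least 50 UMIs, in the 96 nuclei with 2 or more *Bnc2* UMIs and in the 8673 nuclei without, ordered by ratio. *Col4a5* (15.8 against 1.66 CPM) is at the top, and an open triangle marks the upper limit for *Col7a1* at 0 UMIs.

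The *Bnc2* difference was also present among nuclei of like *Pdgfra*. With 2 or more *Pdgfra* UMIs, summed collagen was at 1604 CPM in 77 nuclei with 2 or more *Bnc2* UMIs and at 1168.8 CPM in 5407 without, a ratio of 1.37. Among these nuclei *Col4a1* was at 57.6 (45.7 to 71.5) against 3.82 CPM (3.44 to 4.22), *Col4a2* at 39.1 against 2.87 CPM, *Col9a1* at 239 (214 to 266) against 53.5 CPM, *Col9a3* at 45.5 against 5.89 CPM and *Col4a5* at 15.6 against 1.75 CPM. Without *Pdgfra*, 8 nuclei with *Bnc2* gave 1698 CPM (1407 to 2032) from 119 UMIs. Nuclei with 1 *Bnc2* UMI lay between the others, at 1318 CPM for the sum, 96.2 CPM for *Col9a1*, 28.7 CPM for *Col4a1*, 22.2 CPM for *Col9a3* and 32.2 CPM for *Col25a1*.

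The splits were read against markers of cells that make these collagens in the brain. The summed level of 8 fibroblast and mural genes was 35.7 CPM without *Pdgfra* and 21.1 CPM with 2 or more, and 52.4 CPM with 2 or more *Bnc2* UMIs and 23.5 CPM without. Most of it came from *Twist1* and *Foxc1*. Of the 3 genes with at least 50 UMIs, 2 were past 2-fold higher without *Pdgfra* (*Acta2* and *Foxc1*), and 1, *Acta2*, was higher with *Bnc2*, on 10 UMIs. Of all genes with as many UMIs, 9.82% were past 2-fold higher and 6.74% lower without *Pdgfra*. By *Bnc2* these shares were 7.42% and 3.95%. Each marker list has few such genes, so its counts can hardly be weighed against these shares. *Lum* had 5 UMIs in the 96 nuclei and 19 in the nuclei without *Bnc2*. *Dcn*, *Pdgfrb*, *Rgs5* and *Slc6a13* had 3, 11, 8 and 1 UMIs in all nuclei, too few to be read in 96 nuclei, where they were at 0. The 6 endothelial genes were at 15.8 against 9.38 CPM by *Pdgfra*, and 3 of the 4 with at least 50 UMIs (*Tek*, *Flt1* and *Kdr*) were past 2-fold higher without *Pdgfra*, as *Col4a1* and *Col4a2* were. By *Bnc2* that list was at 11.4 against 11.0 CPM, with 1 gene higher and 1 lower. *Cldn5* had 0 UMIs and *Cdh5* 7 in all nuclei. Of 6 OPC genes, 3 were past 2-fold lower without *Pdgfra* (*Sox10* at 20.1 against 107 CPM), and none by *Bnc2*. The oligodendrocyte gene *Mbp* was at 0.449 against 3.20 CPM by *Pdgfra* and at 3.16 against 2.56 CPM by *Bnc2*, and *Mog* and *Mag* had 10 and 2 UMIs in all nuclei. The lists for astrocytes, neurons and microglia were at 524.5 against 397 CPM, 81.8 against 128 CPM and 7.79 against 7.03 CPM by *Pdgfra*, and at 439 against 429.7 CPM, 114 against 121 CPM and 11.4 against 7.24 CPM by *Bnc2*, with *Aqp4* at 4 UMIs and *C1qa* at 0 in all nuclei. Of 3 neuron genes with at least 50 UMIs, 1 was past 2-fold higher without *Pdgfra*, against the direction of the sum. By *Bnc2*, 1 of the 3 was past 2-fold lower. None of the 3 astrocyte and 3 microglia genes with as many UMIs was past 2-fold by either split. The part of other cell types in the splits was not tested further.

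Chains that form 1 trimer were set side by side within nuclei, in 13 pairs after thinning. Only some of these pairs are given here, and no pairs of other genes, so the values do not speak for partners in general. *Col4a1* and *Col4a2* were both counted in 63 nuclei, where independent counts would give 17.8. Within the nuclei without *Pdgfra* the same pair was in 35 nuclei against 27.4, and with 2 or more in 19 against 2.00. *Col9a1* and *Col9a3* were both in 97 nuclei against 52.5, and in 25 of the 95 thinned nuclei with 2 or more *Bnc2* UMIs against 18.3. The correlation of thinned counts over 8760 nuclei of 1 library was 0.122 for the first pair and 0.172 for the second, both weak in counts this sparse. *Col11a1* and *Col11a2* were both in 62 nuclei against 53.4. *Col6a1* and *Col6a2* were both in 4 nuclei, against 0.565. Per kb of gene span, *Col4a1* and *Col4a2* were at 0.0902 and 0.0535 CPM and *Col9a1* and *Col9a3* at 0.626 and 0.290 CPM. Other partners lay further apart on that scale, with *Col5a1* and *Col5a2* at 0.0643 and 0.00229 CPM and *Col11a1* and *Col11a2* at 3.06 and 0.0581 CPM.

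Proliferation divided the chains little. *Mki67*, a gene of dividing cells, had 2 or more UMIs in 6484 nuclei and none in 1515. Of 27 chains with at least 50 UMIs, 2 were past 2-fold, *Col4a3* and *Col7a1*, both lower with *Mki67*, against 4.77% of all genes. The summed ratio was 0.928 (0.913 to 0.943).

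A list of 61 genes that modify, export, cut, bind or degrade collagen was read in the same classes. With at least 50 UMIs, 50 genes were read by *Pdgfra*, of which 10 were past 2-fold higher without *Pdgfra* (background 9.82%) and 7 lower (background 6.74%). *Fkbp10*, a chaperone of collagen folding, was at 18.5 against 1.53 CPM, a ratio of 12.1, and the prolyl 3-hydroxylase family members *P3h3* and *P3h4* and the glycosyltransferase *Colgalt2* had ratios of 2.50, 2.30 and 3.31. *Pcolce*, which speeds the removal of the C-propeptide, was at 11.0 against 1.15 CPM, and the N-propeptidases *Adamts14* and *Adamts2* were at 19.6 against 2.04 CPM and at 2.17 against 0.486 CPM. The related *Adamts3* and *Pcolce2* went the other way, at 14.7 against 75.7 CPM and at 15.5 against 53.4 CPM. *Sparc*, a collagen-binding chaperone and matrix protein, was at 463 against 172 CPM. Of the degrading enzymes, *Mmp16* and *Mmp15* were lower without *Pdgfra*, at 294 against 1323 CPM and at 89.7 against 213 CPM, as was the inhibitor *Timp3*, at 54.2 against 132.5 CPM. The peroxidase *Pxdn*, which crosslinks type IV collagen, and the receptor *Adgrg1* were past 2-fold higher (53.5 against 21.5 CPM and 54.0 against 26.9 CPM), and *Loxl3* and *Tll1* lower (3.15 against 8.42 CPM and 2.25 against 5.30 CPM).

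By *Bnc2*, 8 of 50 genes of the list were past 2-fold higher (background 7.42%) and none lower (background 3.95%). The collagen receptor integrin *Itga1* had 600 UMIs in the 96 nuclei, or 379 against 64.4 CPM, a ratio of 5.88. *Tll1*, a C-propeptidase, was at 29.0 against 4.44 CPM, a ratio of 6.54, and the collagen receptor *Mrc2* was at 14.5 against 5.39 CPM. *Adamts2*, *Pcolce*, *Tgm2*, *Itga2* and *Itga11* had between 4 and 13 UMIs there, and the intervals of *Tgm2* (0.864 to 8.51) and *Itga11* (0.574 to 5.57) included 1. *Serpinh1*, the collagen chaperone of the endoplasmic reticulum, had 64 UMIs in all nuclei. The genes of each group with the most UMIs were the folding enzymes *Ppib* (547 CPM) and *P4hb* (113.5 CPM) beside *Sparc*, the export factors *Mia3* (152 CPM) and *Mia2* (68.2 CPM) beside *Adamts3*, the receptors *Itgb1* (414 CPM), *Ddr2* (121 CPM) and *Ddr1* (74.3 CPM), and *Mmp16*, *Mmp15* and *Timp3*.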

How the data were processed

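A single library of 3′ snRNA-seq from the cultured cells was analysed. According to the submitters' processing notes and the methods, mm39 was the build and Cell Ranger 8.0.1 the aligner and counter. The values the authors deposited are UMI counts, neither normalized nor filtered on detected genes. Here 33185 of the 33696 genes, and 44 of 44 chains, matched GENCODE vM39 on GRCm39, which is the same build. There were 0 columns of other series.

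Barcodes were retained from 2000 up to 8000 detected genes, the limits given in the methods. The study lists far fewer nuclei of these cells after filtering than these limits left here, and how that smaller set was drawn is not given in the sources used here. Counts were summed over the nuclei of a class and given as CPM. Intervals were computed with Python 3.11.15 and scipy 1.17.1 at a level of 95%. Genes with at least 50 UMIs in both classes together were read for 2-fold differences. A class at 0 UMIs was set to a floor of 3 UMIs. The library had 154375410 UMIs, so a gene at 3 UMIs in the kept nuclei is at 0.0213 CPM, against 1.89 CPM in the nuclei with 2 or more *Bnc2* UMIs. No doublet caller was run and no doublets were removed, but values without the 8% of nuclei with the most UMIs are given as an alternative. No clustering was made, and nuclei are not replicates, so no test was run.

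On simulated counts, 200 genes were set well past 2-fold. Of these, 100% came out past 2-fold in either direction for the *Pdgfra* split over 15883 genes, and 96% for the *Bnc2* split over 16065 genes. Whether the direction was right was not checked. Of unchanged genes, 0.370% and 12.3% were past 2-fold, and 0% of either with the whole interval past it. The counts were drawn with Poisson error alone, which is also the model of the intervals. These shares therefore cover counting error only, and not differences between nuclei or their origins.

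Chains were named with values where they reached 1 CPM in all kept nuclei or, with 10 UMIs, in a class of the *Pdgfra* or *Bnc2* split (0, or 2 or more UMIs), where an interval lay wholly past 2-fold, or as partners of such chains, which gave 28 of 44. The others named (among them *Col1a1*, *Col3a1*, *Col7a1*, *Col13a1*, *Col14a1*, *Col15a1*, *Col24a1* and *Col26a1*) were chosen after their values were seen. Genes of the collagen pathway list were named where they were past 2-fold or among the 3 with the most UMIs of their group. The chains, classes, pathway and marker lists were chosen with earlier results of these data known. A marker gene is not reported here. Lengths of the protein chains and their repeats had been planned but were not analysed here.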

Additional observations from a re-analysis of the deposited data

Results flagged for a closer look

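Barcodes outside the range of detected genes were in no comparison, and both sets held collagen transcripts, above the limit that a count of 0 allows. The 918 barcodes with fewer than 2000 genes held 1917 collagen UMIs, a summed level of 1090.8 CPM (1042.6 to 1140.8), with 19.5% of their UMIs on mitochondrial genes. The 212 barcodes with more than 8000 genes held 11479 collagen UMIs, a summed level of 999.92 CPM (981.71 to 1018.4). The kept nuclei were at 1026 CPM. No control sample bears on these levels.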

How the results depend on the processing

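No paired analysis was possible because 1 library was analysed. The counts of 22, 16 and 13 chains and the summed ratios of 0.407 for *Pdgfra* and 1.62 for *Bnc2* are compared here with their alternatives. The number of chains at 1 CPM or more was 22 under every filter and thinning, 27 at a limit of 0.5 CPM and 19 at 2 CPM.

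By *Pdgfra*, the summed ratio was 0.426 over all deposited barcodes, 0.393 with 3000 to 7000 genes, 0.563 with at most 5% mitochondrial UMIs (455 and 1208 nuclei), 0.589 and 0.652 after thinning to 5000 and 3000 UMIs, 0.435 as a mean of nuclei, 0.417 against 1 or more *Pdgfra* UMIs, 0.395 against 4 or more, and 0.675 without *Col11a1*. The count of 16 chains became 10 with at most 5% mitochondrial UMIs, 9 and 5 after thinning to 5000 and 3000 UMIs, and 10 at 3-fold. The minimum of 50 UMIs was kept in these counts, so with fewer UMIs chains also left them without a smaller ratio. The share of all genes was not computed for these alternatives, so the falls cannot be set against a background. By *Bnc2*, the summed ratio was 1.76 with 3000 to 7000 genes, 1.81 without the 8% of nuclei with the most UMIs, 2.04 and 2.40 after thinning, 1.87 as a mean of nuclei, 1.42 with 1 or more *Bnc2* UMIs, 2.00 with 5 or more, 3.59 and 1.37 within nuclei with 0 and with 2 or more *Pdgfra* UMIs, and 1.93 without *Col11a1*. The count of 13 chains became 7 after thinning to 3000 UMIs, which leaves 20 nuclei with 2 or more *Bnc2* UMIs, and 20 with a minimum of 3 UMIs. At so low a minimum a chain can be past 2-fold by counting error alone. The share of all genes was not computed for either count. Except where the construction says so, the cause was not tested.

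Alternatives chosen after seeing the data moved the *Pdgfra* ratio further. It was 0.592 with only nuclei without *Egfr* as those without *Pdgfra*, 0.324 with only those with 2 or more *Egfr* UMIs, and 0.326, 0.822 and 0.733 within *Xist* nuclei, Y-linked nuclei and nuclei with neither. Without *Col11a1* and *Col19a1* it turned to 1.33, and the *Bnc2* ratio became 3.43. Of 347 ratios of single chains under 13 alternatives of the *Pdgfra* split, 225 stayed in the interval of the value reported, 116 left it, and 6 turned, counting as turned only a chain past 2-fold as reported whose ratio crossed 1: *Col15a1* to 1.38 after thinning to 3000 UMIs, *Col4a3* to 1.22 within *Xist* nuclei and 2.15 with neither, *Col5a1* to 0.671 and *Col19a1* to 1.06 within Y-linked nuclei, and *Col9a2* to 1.27 with neither. Of 225 ratios under 10 alternatives of the *Bnc2* split, 173 stayed, 52 left and none turned by that definition. In both splits a chain with 0 UMIs in a class gave no ratio and could not be counted as turned. By *Bnc2* after thinning to 3000 UMIs, these included *Col4a5*, *Col9a2*, *Col14a1*, *Col18a1* and *Col27a1*. Ratios of chains within 2-fold crossed 1 in 23 of the *Pdgfra* cases (10 chains) and 32 of the *Bnc2* cases (11 chains), and their direction is not settled.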
